A study of Equus caballus with 6 samples.

Results

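The sequences described here are 5′ fragments of the 2 glutamate tRNAs of the horse, those with the anticodons CTC and TTC, in a table of small RNAs called as piRNAs in testis of the Mongolian horse. Of 4936717 distinct sequences of 25 to 32 nt, 965 belonged to the family, 684 of CTC and 281 of TTC. A sequence was a member when it held positions 2 to 21 of uniq_2705077 (CTC) or of uniq_4708970 (TTC) with at most 1 mismatch, and it went to the nearer of the pair. The study compared 3 libraries of mature testis with 3 libraries of immature testis, all from total RNA of the same breed, and was set up around testis development and sperm formation. The ages of the animals, and whether each library came from a separate animal, are not stated in the labels, so p-values measure the spread between these libraries.

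The reference rows uniq_2705077 and uniq_4708970, and with them uniq_4730053 and uniq_4708991, were chosen by their read counts in these libraries, so their levels are given as a description with no test. Tests were made on the 961 other members. These share a source with the 4 listed sequences. The mature libraries held 4032042 to 4550970 reads of the table and the immature libraries 1382083 to 2347351. These totals count sequences called as piRNAs and are not sequencing depth. CPM means reads per 1000000 reads of this table, here called the pool. The libraries came from testis tissue, so fewer cells of a type and less RNA per cell cannot be told apart.

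Transfer RNAs bring amino acids to the ribosome, and nucleases can cut them in or before the anticodon loop, which leaves stable 5′ fragments. In the mouse, fragments of glutamate and glycine tRNAs are among the most abundant small RNAs of sperm. piRNAs are a different class, made from single-stranded precursors and bound by PIWI proteins in germ cells, but their size range overlaps that of tRNA fragments. The glutamate fragments end before the anticodon, so the anticodon names rest on the stem and D-loop sequence. RefSeq names 24 genes TRNAE-CUC and 14 genes TRNAE-UUC in the TB-T2T horse assembly. No genome sequence was used here, so the fragments were not placed on these genes.

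The TTC sequences below carry the finding on the last base of fragments of 31 nt, with the leading ones of 30 and 32 nt beside them. Capitals mark the last base and, in the last 3 sequences, also the T at position 6, with positions counted from 1 at the 5′ end. Over 31 nt the leading rows of the 2 anticodons shared 24 bases and differed at 7, of which 4 lay in the 20 nt used by the rule.

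uniq_4708970 (TTC): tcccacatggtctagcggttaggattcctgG

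uniq_3931856 (TTC): tcccacatggtctagcggttaggattcctG

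uniq_4708991 (TTC): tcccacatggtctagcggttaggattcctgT

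uniq_4708968 (TTC): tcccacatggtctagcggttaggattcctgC

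uniq_4708974 (TTC): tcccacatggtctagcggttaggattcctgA

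uniq_5230164 (TTC): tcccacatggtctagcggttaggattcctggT

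uniq_4588488 (TTC): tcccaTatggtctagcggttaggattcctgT

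uniq_4588480 (TTC): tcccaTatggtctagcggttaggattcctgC

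uniq_4588470 (TTC): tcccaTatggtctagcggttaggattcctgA

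The balance of the 2 anticodons was turned round between mature and immature testis. In mature testis CTC made up 31.9%, 26.9% and 26.9% of all glutamate fragment reads in replicates 1 to 3. In immature testis it made up 74.1%, 68.2% and 59.1%. Among these rows TTC was the larger part in each mature library and CTC the larger part in each immature library. Without the 4 listed sequences the CTC share averaged 32.2% ± 1.45 in mature testis, against 62.8% ± 2.60 in immature testis (SD, n = 3 each). The difference was -30.6 percentage points, with no overlap of the groups and an exact two-sided permutation p of 0.1, the smallest that 3 against 3 libraries can give. As a ratio within each library, this share does not depend on how libraries are scaled to each other. It covers the rows analysed here, from which some abundant forms of both anticodons were absent, as described with the last bases. Near-copies of the absent CTC row of 30 nt held 539, 556 and 304 reads in mature testis, against 695, 586 and 255 in immature testis, and what the absent rows would do to the balance was not tested.

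The change in balance came with a lower share of the pool for CTC in mature testis. CTC fragments took 0.310%, 0.217% and 0.178% of the pool in mature testis, against 1.94%, 1.68% and 0.794% in immature testis. The mean was 6.26 times higher in immature testis, and the groups did not overlap. TTC fragments took 0.661%, 0.590% and 0.485% in mature testis, against 0.677%, 0.784% and 0.550% in immature testis, and these ranges overlapped. In reads, the CTC family held 8121 to 12812 in mature libraries, against 11608 to 39427 in immature libraries. The TTC family held 22089 to 27350 reads in mature libraries, against 8048 to 18395 in immature libraries. Wilson 95% intervals reached at most 0.0479 percentage points to either side of a family's share of the pool. For a share of all CTC or all TTC reads, with or without the listed sequences, they reached at most 1.49 points. Shares of fewer reads had wider intervals, up to 2.03 points in the CTC end sets of 31 nt and 8.09 points in those of C6T. All these intervals cover counting error only, because copies made in PCR were not marked.

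A few sequences carried most reads of each anticodon. Over all libraries the leading 2 sequences held 53.9% of CTC and 50.3% of TTC reads, and the leading 10 held 84.8% and 93.2%. The leading CTC fragment, uniq_2705077 of 31 nt, stood at 530, 340 and 328 CPM in mature testis. In immature testis it stood at 10927, 7832 and 1785 CPM. Immature replicate 3 lay far below the other 2 immature libraries but above each mature library. The mean CPM was 17.1 times higher in immature testis, and 107 times with TMM factors, which estimate the scale of each library from a typical sequence. The other listed CTC fragment, uniq_4730053 of 30 nt, stood at 910, 585 and 505 CPM in mature testis, against 1837, 1820 and 1087 CPM in immature testis, with no overlap and a mean CPM 2.37 times higher in immature testis, or 14.5 times with TMM factors.

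The listed TTC pair went in opposite directions on the CPM scale, though not with TMM factors. uniq_4708970, which ends in G, stood at 802, 1159 and 670 CPM in mature testis, against 3053, 2011 and 2096 CPM in immature testis. uniq_4708991, which ends in T and is otherwise the same sequence, stood at 2565, 1968 and 2148 CPM in mature testis, against 187, 1078 and 440 CPM in immature testis. Neither sequence overlapped between the groups. On the CPM scale the mature mean of uniq_4708991 was 3.92 times the immature mean, and 7.10 times without immature replicate 2, where it was most abundant. Divided by these factors its mean CPM was 904 in mature testis, against 1337 in immature testis, so the direction turned. Together the pair took 0.310% ± 0.0275 of the pool in mature testis, against 0.296% ± 0.0371 in immature testis (SD, n = 3 each), so their sum in the pool differed by less than the spread between libraries. With TMM factors the sum was 5.82 times higher in immature testis.

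The last base of 31 nt TTC fragments was mostly T in mature and mostly G in immature testis. Among the 4 sequences that share the first 30 nt of uniq_4708970, T made up 63.9%, 51.8% and 65.6% of reads in mature testis. In immature testis T made up 5.12%, 29.1% and 14.5%. G made up 19.96%, 30.5% and 20.5% in mature testis, against 83.4%, 54.4% and 69.1% in immature testis. C, in uniq_4708968, made up 8.70% ± 0.470 in mature testis, against 2.66% ± 1.69 in immature testis. A, in uniq_4708974, made up 7.20% ± 1.70 in mature testis, against 12.1% ± 1.69 in immature testis. For each of the 4 bases the mature and immature libraries did not overlap. The sets held at least 4436 reads in each library, and their Wilson intervals reached at most 1.36 points to either side.

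The C6T and CTC fragments of 31 nt also held relatively more T-ended and C-ended reads in mature testis. In the TTC sequences with T in place of C at position 6 (C6T), the ratio of T-ended to A-ended reads was 6.51, 3.07 and 6.90 in mature testis. In immature testis this ratio was 0.345, 1.86 and 0.974. In the C6 form it was 9.19, 5.76 and 11.6 in mature testis, against 0.491, 2.41 and 1.05 in immature testis. In CTC fragments of 31 nt the ratio of T-ended to G-ended reads was 0.448, 0.429 and 0.439 in mature testis, against 0.0295, 0.0793 and 0.0831 in immature testis. The ratio of C-ended to G-ended reads there was 0.0757, 0.0831 and 0.0730 in mature testis, against 0.00934, 0.0178 and 0.0230 in immature testis. None of these 4 ratios overlapped between the groups. The sets of the C6 form and of CTC hold listed sequences, and the end sets were picked after their values were seen, so they carry no test.

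Ratios between 2 end bases that were read in every library did not overlap between the groups in 3 of 3 cases for CTC at 31 nt, 5 of 6 for TTC at 31 nt and 2 of 3 for C6T at 31 nt. For CTC at 26 to 30 nt 5 of 19 ratios did not overlap, and for glycine fragments at 31 nt 1 of 6. For glycine fragments it was 1 of 3 at 26 nt, 2 of 6 at 27 nt and 4 of 6 at 28 nt. At 29 and 30 nt it was 0 of 6 and 0 of 1. The ratios of a set share reads, so they are not separate cases. For TTC at 32 nt 4 of 6 did not overlap, and for C6T at 32 nt 0 of 3. At 32 nt the TTC ratio of T-ended to A-ended reads was lower in mature testis, unlike at 31 nt, with 9.52, 5.04 and 8.55 in mature testis, against 22.4, 15.1 and 14.2 in immature testis. The leading TTC row stops at 31 nt, so the base with which the tRNA goes on at position 32 was not known here. A T end may therefore not be the same kind of end at both lengths. In CTC fragments of 30 nt the ratio of T-ended to A-ended reads was 2.59, 2.36 and 2.90 in mature testis, against 3.10, 3.27 and 2.67 in immature testis. In CTC fragments of 29 nt it was 0.379, 0.347 and 0.599 in mature testis, against 0.238, 0.345 and 0.359 in immature testis. In TTC fragments of 32 nt the ratio of T-ended to C-ended reads was 8.26, 6.87 and 8.55 in mature testis, against 9.32, 7.69 and 6.75 in immature testis. These 3 ratios overlapped between the groups. In CTC fragments of 29 nt the ratio of C-ended to A-ended reads did not overlap, with 0.0948, 0.103 and 0.105 in mature testis, against 0.0744, 0.0727 and 0.0778 in immature testis. The glycine fragments, tRNA-Gly-GCC, gave 0.323, 0.413 and 0.326 T-ended reads per C-ended read at 31 nt in mature testis, against 0.250, 0.411 and 0.412 in immature testis, with overlap. Their ratio of T-ended to A-ended reads did not overlap and went the other way, with 1.69, 1.86 and 1.74 in mature testis, against 2.21, 1.92 and 2.08 in immature testis. Whether the end bases of glutamate and glycine fragments differ in their relation to maturity was not tested.

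A last base was called atypical when it was not the most frequent base at its position in longer reads of the same anticodon. Reads that ended past position 31 were left out, since no longer reads set a usual base there. Without the listed pair, fragments of 32 nt made up 5.53% ± 0.313 of TTC reads in mature testis, against 24.9% ± 4.40 in immature testis. Without the listed sequences, atypical last bases made up 62.5%, 56.8% and 59.1% of the CTC reads kept in mature testis, against 40.9%, 51.6% and 40.9% in immature testis. For TTC the shares were 55.2%, 57.5% and 58.7% in mature testis, against 25.1%, 39.5% and 37.7% in immature testis. The groups did not overlap in either anticodon (exact two-sided permutation p = 0.1 for each, the smallest possible). The differences were 15.0 percentage points for CTC and 23.0 for TTC. With each distinct sequence counted once the difference was -0.0397 points for CTC and -0.659 points for TTC.

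These shares were taken over a table in which several sequences that continue the leading rows were not found. Cutting uniq_2705077 back from its 3′ end gives 7 sequences of 25 to 31 nt, of which 3 were among the sequences analysed here, those of 26, 27 and 31 nt. For uniq_4708970 also 3 of 7 were present, those of 27, 30 and 31 nt, and for its C6T form 0 of 7. At 30 nt, for example, CTC reads ended in T (uniq_4730053) or A (uniq_4872174), while the row that continues uniq_2705077 was absent. Near-copies of the absent CTC sequence of 30 nt were there: 37 sequences with the same end and 1 mismatch at positions 2 to 21 held 2935 reads. At 31 nt, where the exact sequence was present with 41155 reads, 48 such near-copies held 1971 reads, or 4.79% of it. At 26 and 27 nt near-copies came to 5.40% and 6.59% of the reads of the exact sequence. The balance of the anticodons and the shares of lengths and last bases therefore describe the rows analysed here and not all glutamate fragments of the testis. At the ends whose continuing sequence was present, atypical last bases averaged 46.3% of CTC reads in mature testis, against 24.3% in immature testis. For TTC, with C6T sequences also left out, they averaged 36.1% in mature testis, against 22.7% in immature testis.

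CTC and TTC fragments differed in length. CTC reads were spread over 26 to 31 nt. In mature testis 30 nt was the most frequent length of CTC, with 48.0%, 47.6% and 44.4% of reads, and in immature testis it held 16.5%, 16.6% and 22.4%. Fragments of 31 nt made up 29.3%, 27.03% and 30.5% of CTC reads in mature testis, against 64.0%, 56.7% and 28.04% in immature testis. Most of the immature reads at 31 nt were of uniq_2705077. Without the listed sequences 31 nt held 22.9%, 19.8% and 22.6% in mature testis, against 22.3%, 23.7% and 8.71% in immature testis, with overlap. At 30 nt the shares without them were 34.8%, 35.95% and 30.2% in mature testis, against 20.5%, 13.6% and 13.7% in immature testis. The whole pool went the same way at 30 nt, with 24.9% ± 0.125 of reads in mature testis, against 8.61% ± 0.833 in immature testis, and its part in the CTC lengths was not tested. Immature replicate 3 stood apart from the other 2 immature libraries, with 16.6% of CTC reads at 26 nt and 17.5% at 27 nt, against 5.61% to 8.03% at these lengths in the others. Without the listed sequences the mean length of CTC fragments was 29.1 nt ± 0.126 in mature testis, against 28.4 nt ± 0.467 in immature testis (SD, n = 3 each, exact two-sided permutation p = 0.1). The difference of 0.658 nt was 0.390 nt without immature replicate 3. With the listed sequences the mean was 29.7 nt ± 0.0760 in mature testis, against 29.6 nt ± 0.666 in immature testis, and the groups overlapped.

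TTC reads were concentrated at 31 nt, with 74.9%, 78.0% and 80.3% in mature testis, against 58.6%, 53.7% and 60.4% in immature testis. Fragments of 32 nt, led by uniq_5230164, made up 2.57%, 2.76% and 2.31% of TTC reads in mature testis, against 11.01%, 18.0% and 12.9% in immature testis. Neither length overlapped between the groups. At 31 nt the whole pool went the same way, with 18.9% ± 1.55 of reads in mature testis, against 13.3% ± 3.41 in immature testis. At 32 nt the whole pool went the other way, with 3.29% ± 0.424 of reads in mature testis, against 1.15% ± 0.0224 in immature testis. Glycine fragments of 32 nt also went the other way, with 25.9% ± 1.31 of glycine reads in mature testis, against 1.38% ± 0.902 in immature testis. uniq_5230164 itself averaged 90.3 CPM ± 17.5 in mature testis, against 673 CPM ± 258 in immature testis. The mean length of TTC fragments without the listed pair was 30.4 nt ± 0.0530 in mature testis, against 30.3 nt ± 0.134 in immature testis (SD, n = 3 each, exact two-sided permutation p = 0.4), a difference within the spread between libraries. The sign of this small difference turned when only exact copies of the 20 nt were kept.

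The shorter CTC fragments, like the leading one of 31 nt, were lower in the mature pool. The whole pool went the same way at 26 nt, with 7.88% ± 0.537 of reads in mature testis, against 20.7% ± 0.761 in immature testis. At 27 nt it held 10.6% ± 0.462 in mature testis, against 26.4% ± 1.58 in immature testis. The part of the pool in the levels of these fragments was not tested. uniq_2318840, of 27 nt, stood at 161, 122 and 109 CPM in mature testis, against 962, 1046 and 1128 CPM in immature testis. uniq_2319268, of 26 nt, stood at 128, 127 and 111 CPM in mature testis, against 902, 882 and 1041 CPM in immature testis. Both were close to 8 times higher in immature testis, with ratios of 8.01 and 7.74, and varied little within each group. uniq_5177575 (28 nt) had a ratio of 9.97 and uniq_2588140 (29 nt) one of 5.76. The ratios of uniq_4872174 (30 nt) and uniq_2705056 (31 nt) were 2.01 and 2.07, and that of uniq_2705056 was 1.34 without immature replicate 2, with overlapping groups. The leading members of 25 nt, uniq_4524970, and of 32 nt, uniq_3841085, were rare, with means of 1.22 and 0.556 CPM in mature testis, against 13.2 and 9.71 CPM in immature testis. Their ratios of 10.9 and 17.4 moved by over 1.5 times with single libraries, to 28.7 for uniq_4524970 without mature replicate 2, and for uniq_3841085 to 88.3 without mature replicate 1 and 7.73 without immature replicate 3.

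Among TTC fragments of 31 nt with the C6 base, those ending in T or C had the higher CPM in mature testis and those ending in G or A in immature testis. The mature excess of those ending in T or C was not seen with TMM factors. The named TTC members of other lengths averaged higher in immature testis, whatever their last base. uniq_3931856, of 30 nt and ending in G, stood at 1009, 793 and 570 CPM in mature testis, against 1389, 1312 and 767 CPM in immature testis, and the groups overlapped. uniq_3956131, of 27 nt and ending in C as the tRNA goes on, averaged 172 CPM ± 46.0 in mature testis, against 402 CPM ± 60.2 in immature testis. uniq_4708974, ending in A at 31 nt, averaged 268 CPM ± 79.1 in mature testis, against 416 CPM ± 32.9 in immature testis. uniq_4708968, ending in C at 31 nt, stood at 370, 327 and 271 CPM in mature testis, against 36.9, 162 and 78.6 CPM in immature testis. Its mature mean was 3.49 times the immature mean, and 5.59 times without immature replicate 2. The rarer leaders at other lengths were uniq_3042778 (29 nt), uniq_3322593 (26 nt) and uniq_3700753 (28 nt), which were 1.91, 5.82 and 6.03 times higher in immature testis. The last of these ratios rests on only 4, 1 and 3 reads in mature testis, against 7, 5 and 6 in immature testis. It ranged from 4.63 to 8.30 with single libraries left out.

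A second form of the TTC fragment, with C6T, was more frequent in mature testis. Its 45 sequences made up 14.5%, 13.1% and 12.8% of TTC reads in mature testis. In immature testis they made up 2.13%, 6.75% and 4.25%, and the groups did not overlap. The most abundant, uniq_4588488, stood at 679, 474 and 455 CPM in mature testis, against 20.98, 236 and 76.6 CPM in immature testis. The mature mean CPM was 4.83 times the immature mean, and 10.99 times without immature replicate 2. This excess was not seen with TMM factors (edgeR log2 fold change, mature over immature, of -0.25 ± 0.59, SE). The C6T group was picked after its values were seen. No C6T row followed the tRNA to its last base, so the share of the form among all TTC reads mixes its frequency with its end bases. Compared at the same end of 31 nt, A-ended C6T reads were 432, 623 and 300 beside 1155, 1378 and 840 of the C6 form in mature testis. In immature testis they were 84, 298 and 115 beside 528, 1051 and 613. These C6T reads per C6 read did not overlap between the groups, whereas at the T end of 31 nt they did.

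Fragments nearly always began at the same base. Those beginning at base 1 of the leading rows numbered 658 of 684 for CTC, with 99.9% of reads, and 279 of 281 for TTC. All 281 TTC sequences began with T, as did 635 of the 684 CTC sequences. CTC reads that began with G made up 0.304%, 0.342% and 0.296% in mature testis, against 0.105%, 0% and 0.00861% in immature testis. The value of 0 stands for 0 of 39427 reads, which allows a share of up to 0.00761%. Exact copies of the 20 nt held 92.7% of CTC and 87.04% of TTC reads. Just inside the rule, sequences with 1 mismatch numbered 441 for CTC, with 2374 reads in mature testis, against 5503 in immature testis. For TTC they numbered 228, with 11109 reads in mature testis, against 3018 in immature testis. Most of these TTC reads were of the C6T form, with 3969, 3126 and 2828 reads in mature testis, against 199, 1241 and 342 in immature testis. Reads by number of mismatches are sums over libraries and are not scaled for their totals. Just outside it, sequences with 2 mismatches numbered 62 for CTC, with 91 reads in mature testis, against 333 in immature testis. For TTC they numbered 128, with 590 reads in mature testis, against 251 in immature testis.

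Relative to glycine fragments, glutamate fragments had a higher share in mature testis. Fragments of tRNA-Gly-GCC, found by the same rule from uniq_2076883, took 2.39%, 0.435% and 0.672% of the pool in mature testis, against 9.07%, 13.4% and 8.03% in immature testis. The log2 ratio of glutamate reads, without the listed sequences, to glycine reads was -2.28, -0.11 and -1.17 in mature testis. In immature testis it was -3.16, -3.49 and -3.32. The difference was 2.14 on the log2 scale, with no overlap (exact two-sided permutation p = 0.1). Mature replicate 1, with the most glycine reads, lay nearest to the immature libraries. Taken alone and without the listed sequences, TTC reads per glycine read did not overlap between the groups, but CTC reads per glycine read did. Mature replicate 1 held 6855 such CTC reads beside 98780 glycine reads, a lower ratio than the 9150 beside 125403 in immature replicate 1.

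Single members were also tested within a fit over 31788 sequences of the table, by edgeR's quasi-likelihood test at a Benjamini-Hochberg adjusted p under 0.05. Of the 961 members that were not listed, 117 passed its filter on low counts, 85 of CTC and 32 of TTC. Of these, 55 of CTC and 12 of TTC reached the filter's level in all 3 immature but not in all 3 mature libraries, so the direction of their calls was partly set by the filter. With TMM factors 85 of 85 CTC and 29 of 32 TTC members were called higher in immature testis, where 21.9% of all tested sequences were called. With edgeR 0 members were called higher in mature testis, where 8.41% of all were called. The number was also 0 at an unadjusted p under 0.05 and with DESeq2. Scaled by library totals instead, 77 CTC and 18 TTC members were called higher in immature testis (20.3% of all tested), and 0 CTC and 3 TTC members higher in mature testis (77.7% of all tested). The change of scale moved the median log2 fold change of all tested sequences, mature over immature: it was 0.62 with TMM factors and 3.15 with library totals, a shift of 2.52. The median was -5.11 for the CTC members and -3.86 for the TTC members with TMM factors, and -2.55 and -1.29 with library totals. Members also share their source, so these counts describe those that passed the filter and support nothing about the whole family.

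The 3 TTC members that were not called with TMM factors were the same 3 that, scaled by library totals, were called higher in mature testis. They were uniq_4588488, uniq_4708968 and uniq_4588480, all of 31 nt and ending in T or C. With library totals their log2 fold changes were 2.27 ± 0.70, 1.80 ± 0.69 and 2.27 ± 0.68 (SE, edgeR adjusted p of 0.0014, 0.00898 and 0.000864). With TMM factors they were -0.25 ± 0.59, -0.74 ± 0.60 and -0.26 ± 0.61 (adjusted p of 0.777, 0.356 and 0.773). Whether these 3 were higher in mature testis therefore depended on the scale, whereas the shares of end bases within a library did not. By contrast uniq_5230164, of 32 nt, had a log2 fold change of -2.90 ± 0.73 with library totals (adjusted p = 8.42e-05) and -5.47 ± 0.74 with TMM factors (adjusted p = 6.03e-13).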

How the data were processed

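Small RNA libraries, 3 of mature and 3 of immature testis, were analysed, grouped by the labels. The deposited table gives whole-number read counts per distinct sequence, not normalized, per the file headers and values. Among tools, the submitters' processing notes list Bowtie, with no version or role. The genome build and the calling of piRNAs, not given in the sources used here, bear on which sequences are listed. Per the labels' protocols, adapters were ligated to both ends of total RNA and products were cut from a gel by size, which limits the lengths seen. All 6 columns were used.

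Members were found by comparing each sequence with the 20 nt of both reference rows at every offset, which was tested on simulated data. Members, sequences named and tests were chosen with earlier results of these data known. The text names the 4 listed sequences and, for each anticodon, the 8 members with the highest mean CPM and the leading member of each length. Other names and the end sets were picked after their values were seen. Shares were compared by exact two-sided permutation tests over libraries. The count test was edgeR's quasi-likelihood fit, version 4.0.16 under R 4.3.3 (TMM factors, table totals as library sizes, filterByExpr), and DESeq2 1.42.0 was an alternative. A count of 0 allows up to 3 reads, or 0.659 to 0.744 CPM in mature and 1.28 to 2.17 CPM in immature libraries. Some sequences are not reported here.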

Additional observations from a re-analysis of the deposited data

How the results depend on the processing

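The CTC share, the mean length of CTC fragments and the log2 ratio to glycine fragments kept their direction under each of 13 alternatives. These were other limits on mismatches, fragments from the first base only and each sequence counted once. Others were the listed sequences included, sequences of 1 read left out, each library left out in turn and a paired test. As the groups did not overlap in these measures, leaving out a library could not turn a direction. The paired test reused the same difference, so it could not turn a direction either. Fragments from the first base only, sequences of 1 read left out and up to 2 mismatches changed few reads and could hardly have done so. With them the CTC share differed by -30.60, -30.59 and -30.75 points. That leaves exact copies of the 20 nt, each sequence counted once and the listed sequences included. The differences did not keep their size when each sequence was counted once: the CTC share then differed by -6.33 points, the CTC length by 0.236 nt and the log2 ratio by 0.19 (exact permutation p = 0.3). With the listed sequences included the CTC length differed by only 0.0346 nt, and the groups overlapped. Counting each sequence once also turned the difference in atypical last bases to -0.0397 percentage points for CTC and -0.659 for TTC, and the difference in mean TTC length to -0.199 nt. With exact copies of the 20 nt only, that length difference was -0.0814 nt. Restricting last bases to ends whose continuing sequence was analysed, an alternative chosen after seeing the data, gave differences of 22.0 points for CTC and 13.4 for TTC. The cause of these changes was not tested. Of the members that were not listed, 114 of 117 tested were called changed (97.4%, against 30.4% of all sequences tested). The number was 42 of 45 after a filter at 10 CPM in 3 libraries (93.3%, against 23.7% of all) and 340 of 476 with no filter beyond 6 reads (71.4%, against 29.3%). It was 98 with library totals (83.8%, below the 98.1% of all) and 113 with DESeq2 (96.6%, against 34.5%). Without single libraries the number was 112 to 114. With the replicate number as a block (replicate block) it was 112. Same-numbered libraries did not deviate together (r of -0.0404, -0.0404 and 0.0610 over 70 members), so the numbers were not taken to pair the libraries. A paired sign-flip test cannot give a p below 0.25. Depth limits the rare forms: C6T sets of 31 nt held as few as 120 reads in a library, with Wilson intervals of up to 8.09 points to either side.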

Other observations

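Changes to G or T at position 4 of the glutamate fragments were most frequent in immature replicate 1, whereas changes to A were not. In CTC fragments C4G was read 161 times there and 0 to 4 times in each other library. In TTC fragments C4G was read 77 times there and 0 or 1 times in each other library. C4T made up 0.769% of CTC and 0.642% of TTC reads in immature replicate 1, against at most 0.148% and 0.0870% in the others. C4A made up 0.332% of CTC reads in immature replicate 1, against 0.148% to 0.616% in the others, and 0.182% of TTC reads, against 0.0317% to 0.217%. In the glycine fragments all changes at position 4, also those to A, were most frequent in immature replicate 1. There T4G made up 2.77% of reads, T4A 0.0654% and T4C 0.346%, against at most 0.0766%, 0.0114% and 0.163% elsewhere. Over all reads of the table, G stood at position 4 in 22.2% in that library, against 19.95% and 22.1% in the other immature libraries and 23.3% to 24.2% in mature testis. The cause was not tested.

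A single CTC variant marked mature replicate 2. T13C made up 2.73% of CTC reads in that library and 0.421% to 0.564% in the other 5. Most of these reads, 188 of 239, were of uniq_2487591, which had 7 to 63 reads in each other library. In TTC fragments T13C did not stand out in mature replicate 2, with 0.130% there and 0.118% and 0.135% in the other mature libraries.

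The 2 anticodons also differed in how many rare forms they had. Of the 684 CTC sequences 192 were read once in all libraries together (28.1%) and 151 were found in all 6 libraries. Of the 281 TTC sequences 34 were read once (12.1%) and 80 were found in all 6. Of all sequences analysed, 76.95% were read once. CTC sequences found in mature testis alone numbered 73, and those found in immature testis alone numbered 214, or 10.7% and 31.3% of them. For TTC the numbers were 30 and 44, or 10.7% and 15.7%. Of all sequences analysed, 45.3% were found in mature testis alone and 48.4% in immature testis alone.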
